A study of Capra hircus with 72 samples.

Results

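Of the 21343 genes measured in goat brain, 7 genes of cholesterol synthesis are described here: SREBF2, HMGCS1, IDI1, FDFT1, SQLE, LSS and DHCR7. They were chosen by their gene symbol, which matched exactly 1 gene each, so all 7 were measured. RNA was sequenced from female goats (Capra hircus) in 4 regions. One is cortical, the medial prefrontal cortex (mPFC), and the other 3 lie in the brainstem and take part in the control of breathing, the retrotrapezoid nucleus (RTN), the nucleus of the solitary tract (NTS) and the ventral respiratory column (VRC). Control goats breathed room air for 14 days, mild chronic hypercapnia was 14 days at 6% CO2, and moderate chronic hypercapnia was 7 days at 6% CO2 followed by 7 days at 8% CO2. The study had 6 animals per condition, and each of the 12 groups formed by 4 regions and 3 conditions held 6 libraries, 72 in all. The study's question was which genes differ between each level of hypercapnia and room air in each region. Nothing in the labels says that a replicate number marks the same animal in each region, and p-values measure the spread between these libraries.

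Brain cells make nearly all of their own cholesterol, because the sterol carried in blood lipoproteins does not cross the blood-brain barrier. The pathway condenses acetyl units to mevalonate, turns mevalonate into isoprenoids, joins these to squalene, closes squalene to lanosterol and trims lanosterol to cholesterol. When membranes of the endoplasmic reticulum hold little sterol, the transcription factor encoded by SREBF2 is released by cleavage and raises transcription of the enzyme genes and of its own gene. Oligodendrocytes, which build myelin, are the largest consumers of cholesterol in the developing brain, and astrocytes supply neurons through lipoproteins.

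SREBF2 encodes the factor itself, and the other 6 genes encode enzymes. HMGCS1 forms HMG-CoA, the precursor of mevalonate. IDI1 interconverts the isoprenoid building blocks, FDFT1 is squalene synthase, SQLE adds oxygen to squalene, LSS is lanosterol synthase, and DHCR7 makes cholesterol from its last precursor. No gene of cholesterol uptake is among the 7. Genes of uptake were read from a separate list. The files place SREBF2 (ENSCHIG00000020010) on chromosome 5, HMGCS1 (ENSCHIG00000015096) on chromosome 20, IDI1 (ENSCHIG00000023940) on chromosome 13, FDFT1 (ENSCHIG00000024342) on chromosome 8, SQLE (ENSCHIG00000025130) on chromosome 14, LSS (ENSCHIG00000013212) on chromosome 1 and DHCR7 (ENSCHIG00000014907) on chromosome 29. Their genome build is not given in the sources used here.

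Libraries held 12838991 to 31884742 counts in all. Levels are given as CPM, counts scaled to a common library total with trimmed mean of M-values (TMM) factors over all 72 libraries, and levels of different genes are compared only in the authors' RPKM, which divides by gene length. The order of the genes by RPKM depends on the deposited lengths, 1588 bases for FDFT1 to 6266 for IDI1, which were not checked. Single counts of the 7 genes ran from 161 for LSS to 12430 for FDFT1. As a check of the brainstem against the cortical labels in room air, HOXA4, a hindbrain gene, averaged 8.42 ± 3.62 CPM in RTN, 44.7 ± 9.37 CPM in NTS, 33.7 ± 5.33 CPM in VRC and 0.0342 ± 0.0400 CPM in mPFC (SD, n = 6). This gene does not check the labels of RTN, NTS and VRC against each other.

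HMGCS1 and FDFT1 were the most abundant of the 7 genes per length of gene in every region and LSS the least. In room air FDFT1 averaged 259 ± 17.9 RPKM in RTN, 253 ± 23.1 in NTS, 333 ± 34.8 in VRC and 193 ± 24.4 in mPFC (SD, n = 6). HMGCS1 averaged 162 ± 20.6, 205 ± 52.9, 186 ± 44.1 and 211 ± 30.4 RPKM in the same regions. FDFT1 had the higher mean in the 3 brainstem areas and HMGCS1 in mPFC, with spreads that overlapped in NTS and mPFC. SQLE came next, at 63.7 ± 7.04 RPKM in RTN and 83.9 ± 13.6 in VRC, its lowest and highest room air means. DHCR7 ranged from 37.6 ± 4.40 RPKM in RTN to 63.0 ± 15.2 in VRC. IDI1 followed with 23.1 ± 1.90 RPKM in mPFC to 36.8 ± 4.56 in VRC, and SREBF2 with 16.5 ± 2.17 in RTN to 27.0 ± 3.56 in NTS. In NTS the means of IDI1 and SREBF2 differed by less than the SD of SREBF2. LSS stood apart at 7.45 ± 1.11 RPKM in RTN to 11.3 ± 5.70 in VRC.

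The spread between libraries of a group also differed among the genes. The coefficient of variation of CPM, the SD as a percent of the mean, had a median over the 12 groups of 9.31% for FDFT1 and 10.4% for IDI1, the lowest medians of the 7. In single groups FDFT1 reached 12.5% and IDI1 27.6%, the latter in VRC under mild hypercapnia. The median is also given for the others. It was 12.1% for SQLE, 13.2% for SREBF2, 16.3% for DHCR7 and 17.6% for HMGCS1. LSS, with the fewest counts, had 28.1% and reached 50.2% in 1 group.

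Between regions in room air, VRC held the most RNA of FDFT1, IDI1, SQLE and DHCR7, and SREBF2 was highest in the NTS and VRC. RTN had the lowest SREBF2 mean, but its difference from mPFC passed with some methods only. HMGCS1 and LSS did not pass the test among the 4 regions. With 6 goats per condition in the study's design, the 4 regions share room air goats, so their 24 libraries are not independent, and the fit without a term for the goat treats them as if they were. With the replicate number as a block the same count of the 7 genes, 5, was called. edgeR's quasi-likelihood F-test over the 24 room air libraries, with Benjamini-Hochberg adjustment over 15700 genes, called 5 of the 7 genes: FDFT1 (adjusted p = 6.44e-08), IDI1 (7.28e-07), SREBF2 (1.92e-05), DHCR7 (0.000378) and SQLE (0.00304). HMGCS1 had an adjusted p of 0.530 and LSS of 0.157 in that test. Of all genes tested 69.2% were called, so 5 of 7 is close to the share of genes at large.

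**Figure D1:**
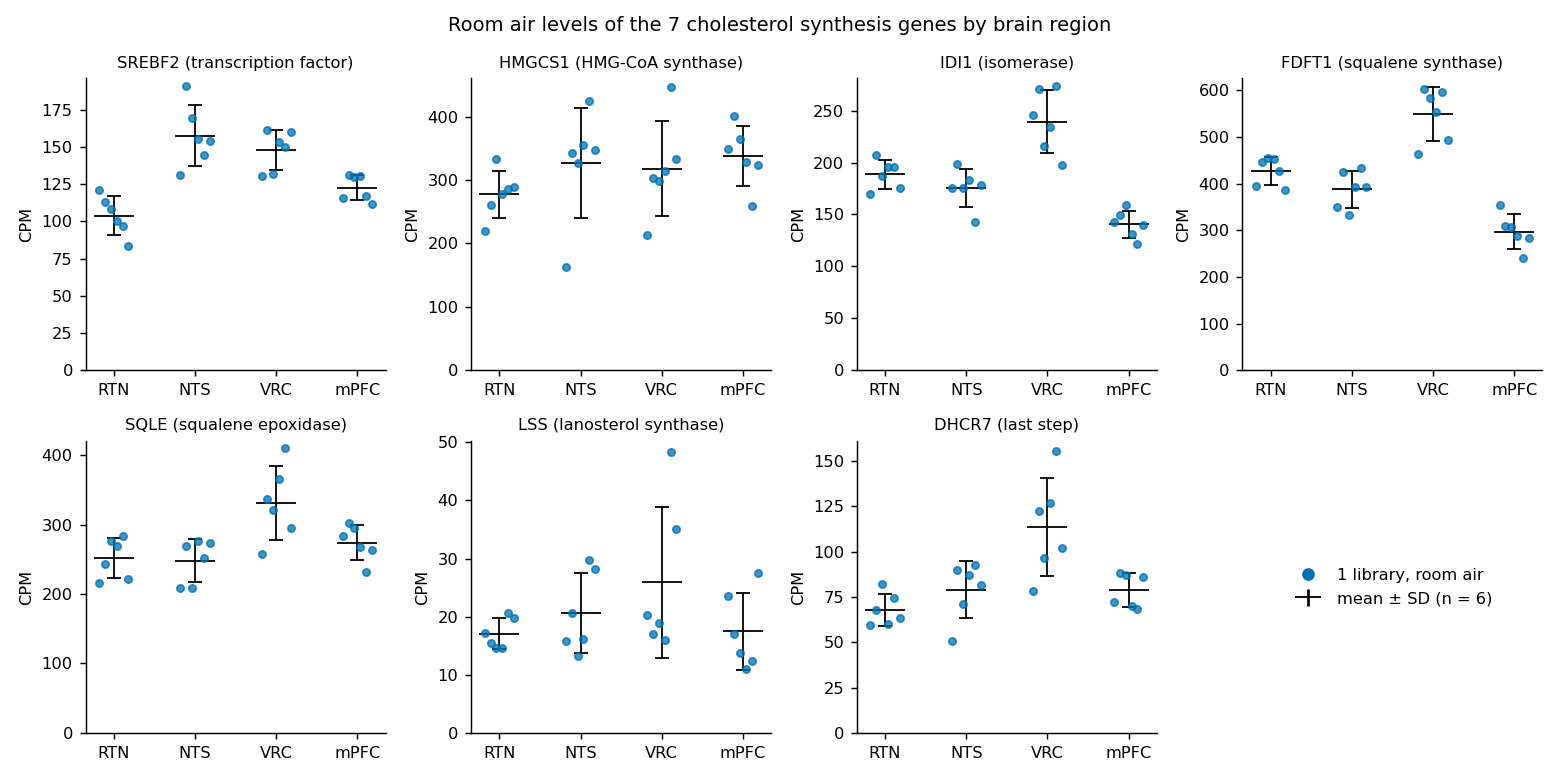
CPM of the 7 genes in the room air libraries of RTN, NTS, VRC and mPFC (x axis), with 1 point per library and a bar for the mean ± SD of 6 libraries. FDFT1 and IDI1 libraries of VRC and RTN lie above every mPFC library, while the HMGCS1 and LSS libraries of the 4 regions overlap.

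FDFT1, which commits isoprenoids to sterols, had the smallest adjusted p among regions. Its lowest, median and highest room air libraries had 385, 436 and 455 CPM in RTN, 332, 393 and 433 CPM in NTS, 464, 569 and 604 CPM in VRC and 241, 298 and 354 CPM in mPFC. Every VRC library was above every library of the other 3 regions, and every RTN library above every mPFC library. IDI1 had 169.6, 191 and 207 CPM in RTN, 143, 177 and 199 CPM in NTS, 198, 239.8 and 273 CPM in VRC and 122, 141 and 159 CPM in mPFC, again with VRC and RTN clear of mPFC. DHCR7 had 59.7, 65.6 and 82.3 CPM in RTN, 50.8, 84.6 and 92.9 CPM in NTS, 78.5, 112 and 156 CPM in VRC and 68.7, 78.9 and 88.5 CPM in mPFC. Its VRC libraries spread widely and overlapped those of every other region. SQLE had 215, 256 and 284 CPM in RTN, 208, 261 and 276 CPM in NTS, 258, 329 and 409.9 CPM in VRC and 232, 276 and 303 CPM in mPFC, with overlap between every pair of regions. SREBF2 had 83.5, 104 and 121 CPM in RTN, 131, 155 and 191 CPM in NTS, 131, 152 and 161 CPM in VRC and 112, 124 and 131 CPM in mPFC, and no RTN library reached the lowest NTS or VRC library. For HMGCS1 these values were 220.5, 282 and 334 CPM in RTN, 163, 345 and 424 CPM in NTS, 214, 309 and 446 CPM in VRC and 259.5, 338 and 401 CPM in mPFC. For LSS they were 14.6, 16.3 and 20.7 CPM in RTN, 13.2, 18.4 and 29.8 CPM in NTS, 16.0, 19.6 and 48.3 CPM in VRC and 10.95, 15.3 and 27.4 CPM in mPFC, and the 4 regions overlapped for both genes.

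In VRC against mPFC, 5 of the 7 genes were higher at an adjusted p under 0.05 and none lower, where 29.4% of all genes tested were higher. The log2 fold changes, with their standard errors (SE), were 0.90 ± 0.091 for FDFT1, 0.78 ± 0.091 for IDI1, 0.54 ± 0.14 for DHCR7, 0.28 ± 0.10 for SQLE and 0.28 ± 0.090 for SREBF2. FDFT1 thus stood at 1.86 times and IDI1 at 1.72 times its mPFC level. LSS had 0.58 ± 0.27 (adjusted p = 0.0697, edgeR), and HMGCS1 -0.077 ± 0.17. With the replicate number as a block LSS passed as well, at 0.51 (adjusted p = 0.0281, edgeR), which made 6 of the 7 genes. Of the 7 genes, FDFT1 and IDI1 had VRC libraries that all lay above those of mPFC, and 37.5% of all genes lay clear in either direction. The median log2 fold change of the 7 genes was 0.54, against -0.015 over all genes tested.

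Against mPFC the other 2 brainstem areas showed part of this pattern. In NTS, FDFT1 (0.38 ± 0.090 on the log2 scale), SREBF2 (0.35 ± 0.090) and IDI1 (0.32 ± 0.091) were higher, 3 of 7 genes where 23.7% of all genes were. In RTN, FDFT1 (0.55 ± 0.090) and IDI1 (0.46 ± 0.091) were higher, 2 of 7 genes where 27.9% of all genes were. These 2 genes also lay clear of mPFC in RTN, as 35.9% of all genes did, while 0 of the 7 did in NTS, where 24.1% of all genes did. SREBF2 was at -0.21 ± 0.090 in RTN against mPFC, with an adjusted p of 0.0541 in edgeR. The adjusted p was below 0.05 with RLE size factors (0.0327), DESeq2 (0.0292), limma with quality weights (0.0471) and the replicate block (0.0367), so the call depended on the method.

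Among the brainstem areas, RTN was lower than VRC in 5 of the 7 genes, where 5.57% of all genes were lower. DHCR7 was at -0.72 ± 0.14 on the log2 scale, SREBF2 at -0.49 ± 0.090, SQLE at -0.37 ± 0.10, FDFT1 at -0.34 ± 0.090 and IDI1 at -0.32 ± 0.091, with adjusted p-values of 0.000638 to 0.0175 in edgeR. LSS was at -0.58 ± 0.27 (adjusted p = 0.158, edgeR). NTS was lower than VRC in 4 of the 7 genes, where 15.4% of all genes were lower: DHCR7 was at -0.54 ± 0.14, FDFT1 at -0.52 ± 0.090, IDI1 at -0.46 ± 0.091 and SQLE at -0.43 ± 0.10. Between RTN and NTS only SREBF2 passed, at -0.56 ± 0.090 (adjusted p = 7.59e-05, edgeR), where 10.4% of all genes were lower in RTN. SREBF2 and FDFT1 lay clear between RTN and VRC, where 9.22% of all genes did, FDFT1 between NTS and VRC (8.94% of all genes), and SREBF2 between RTN and NTS (7.45%). For SREBF2, NTS and VRC were not told apart (0.074 ± 0.090, adjusted p = 0.555, edgeR), and RTN and mPFC were told apart in some fits only. The order of the SREBF2 means in room air was NTS, VRC, mPFC and RTN. For FDFT1 it was VRC, RTN, NTS and mPFC, with RTN and NTS not told apart (0.18 ± 0.090, adjusted p = 0.172, edgeR), except with limma and quality weights (adjusted p = 0.0294).

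Other enzymes of the pathway were also higher in VRC than in mPFC, some with larger fold changes than FDFT1. Of 15 further synthesis genes, 13 were measured. At an adjusted p under 0.05 in edgeR, 10 of these were higher and 1 lower in VRC against mPFC (median log2 fold change 0.57). Of all genes tested, 29.4% were higher and 30.9% lower there. CYP51A1, the first enzyme to act on lanosterol in the trimming steps, averaged 338 ± 26.7 CPM in VRC and 104 ± 8.99 CPM in mPFC (SD, n = 6; log2 1.70 ± 0.098). SC5D, which introduces a double bond late in the pathway, averaged 257 ± 27.0 CPM in VRC and 85.4 ± 9.87 CPM in mPFC (log2 1.60 ± 0.096). MSMO1, a sterol demethylation enzyme, was at log2 1.08 ± 0.087 in the same comparison, and HSD17B7, a sterol ketone reductase, at 1.10 ± 0.11 in RTN against mPFC. In NTS 7 and in RTN 10 of the 13 were higher than in mPFC, where 23.7% and 27.9% of all genes were. In NTS 7 were lower than in VRC, where 15.4% of all genes were. RTN was lower than VRC in 3 of the 13 (median -0.11), where 5.57% of all genes were lower. It was higher than NTS in 2 of the 13 (median 0.21), where 11.2% of all genes were higher.

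Markers of myelin moved with part of these regional differences. All 11 measured genes of the myelin list, of 14, were higher in RTN, NTS and VRC than in mPFC at an adjusted p under 0.05. Their median log2 fold changes were 2.67 in RTN, 1.98 in NTS and 3.39 in VRC, where 27.9%, 23.7% and 29.4% of all genes were higher. All 11 were lower in NTS than in VRC (median -1.41), where 15.4% of all genes were. The summed level of the myelin list was 26200.0 to 38839 CPM in RTN, 8717 to 38989 CPM in NTS, 45012 to 59667 CPM in VRC and 2294 to 8606 CPM in mPFC over the room air libraries, and no marker of the list was at 0 in any of these groups. In RTN against VRC, 1 of the 11 was lower at an adjusted p under 0.05 (median -0.69), as were 5.57% of all genes and 5 of the 7 genes. In RTN against NTS, 4 of the 11 were higher (median 0.69), as were 11.2% of all genes. The 7 genes had a median of -0.18 there, with SREBF2 lower. The part of the myelin markers in the regional differences of the 7 genes was not tested. In whole tissue, fewer cells of a type and less RNA per cell cannot be told apart.

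Hypercapnia left the 7 genes without a change that passed the test. In the 8 comparisons with room air, 0 of 56 gene and comparison pairs had an adjusted p under 0.05 in edgeR, and 0 of 28 did in moderate against mild hypercapnia. The same 84 gave 0 calls with DESeq2, and 0 with limma and quality weights. The background was as low: 0% of genes were called by edgeR in every comparison except NTS under moderate hypercapnia, where 1 gene of 15418 was called (0.00649%). At an unadjusted p under 0.05 there were 4 of the 56 and 5 of the 84. Of all genes, the share at that level under mild hypercapnia was 6.59% in RTN, 4.66% in NTS, 6.23% in VRC and 3.45% in mPFC. Under moderate hypercapnia it was 7.38% in RTN, 13.4% in NTS, 5.67% in VRC and 2.1% in mPFC, and in moderate against mild hypercapnia 10.6%, 4.02%, 15.5% and 4.71% in the same order. For none of the 7 genes did the libraries of 2 conditions lie clear of each other. Of all genes, 0.345% in RTN, 0.104% in NTS, 0.418% in VRC and 0.175% in mPFC did so under mild hypercapnia, and 0.437%, 0.435%, 0.196% and 0.13% under moderate. In moderate against mild hypercapnia these shares were 0.834%, 0.402%, 0.627% and 0.156%. A p above the threshold does not show that levels were equal: the 95% intervals of the log2 fold changes bound what could have been missed. Of the 56 intervals, 55 lay within a 2-fold change in either direction and 44 within 1.5-fold.

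**Figure D2:**
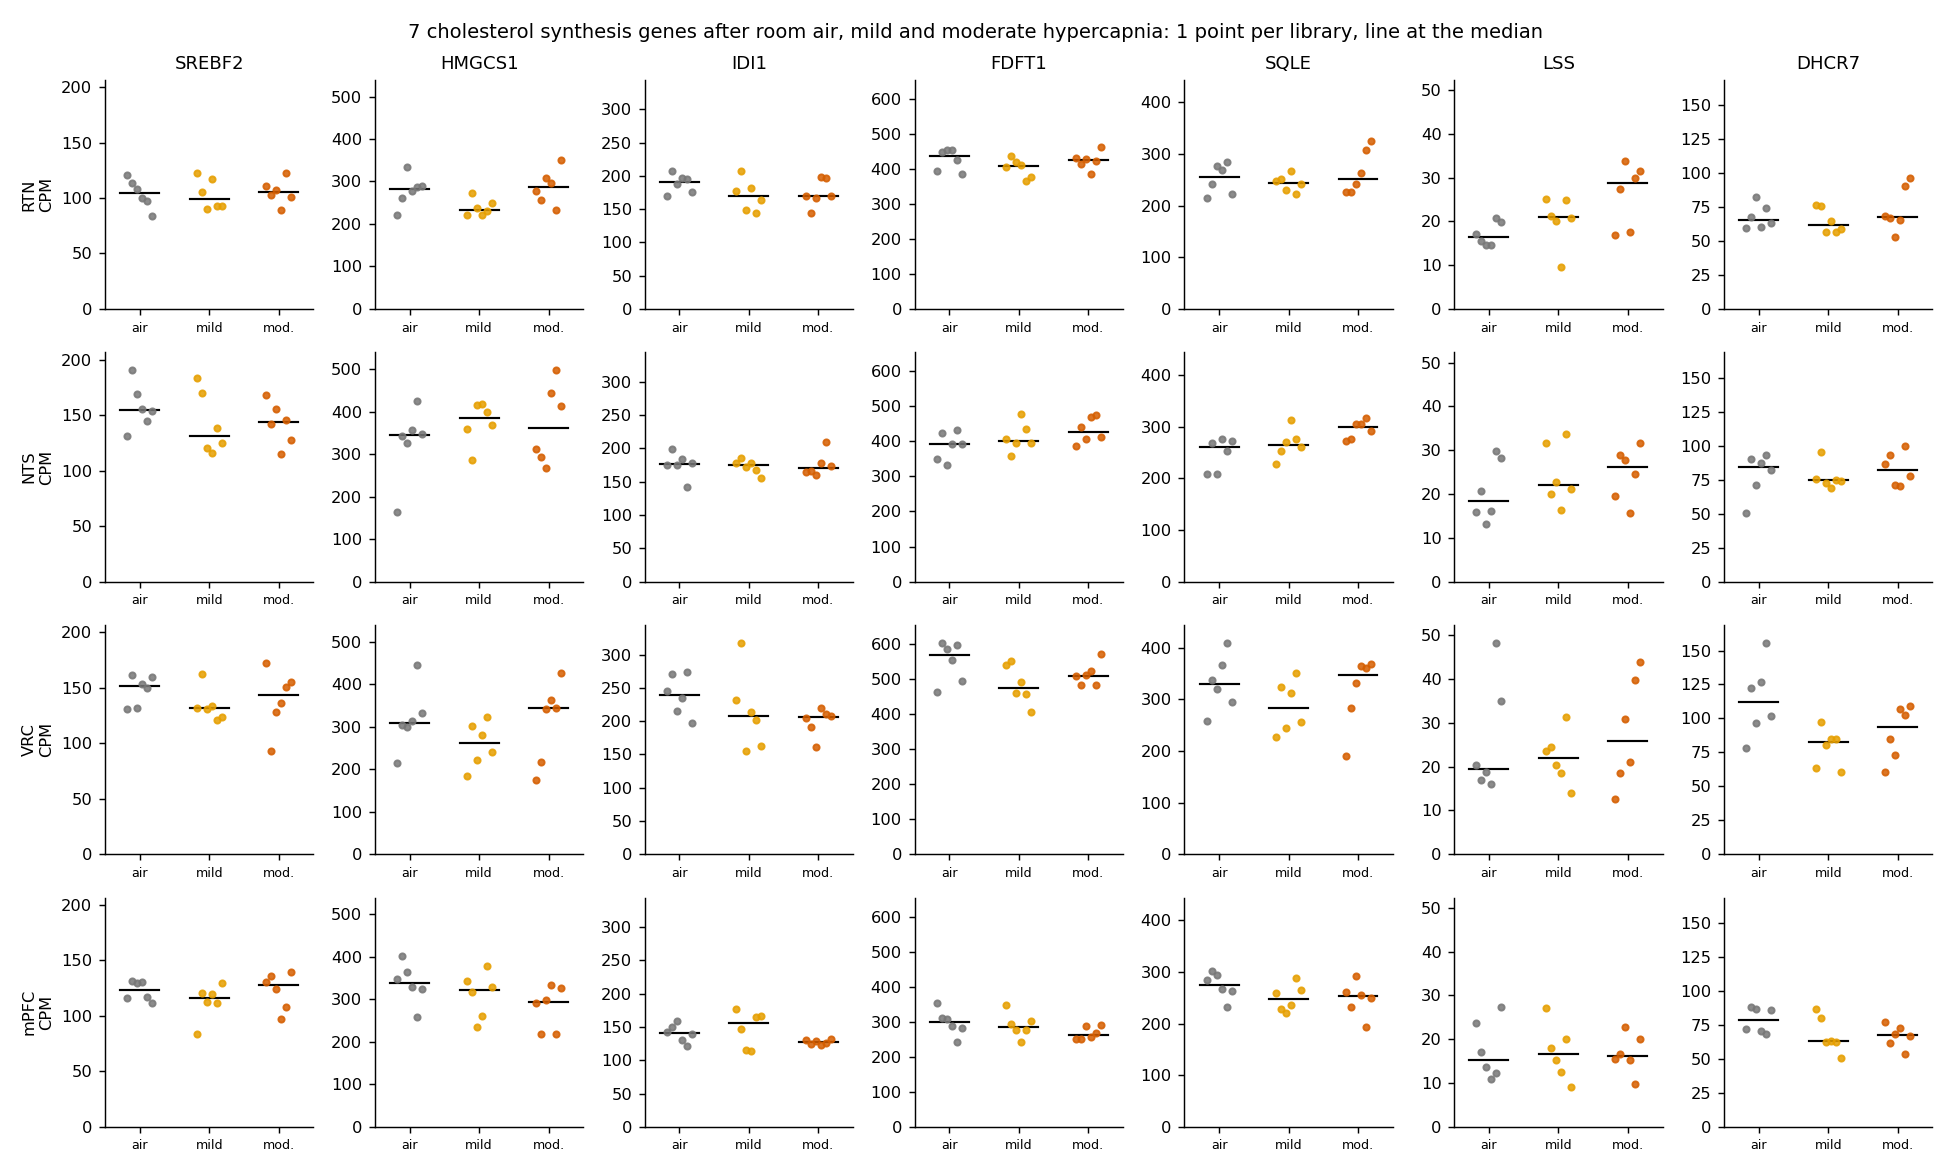
CPM of the 7 genes (columns) in RTN, NTS, VRC and mPFC (rows) after room air, mild and moderate hypercapnia (x axis), with 1 point per library and a line at the median of 6. In every panel the libraries of the 3 conditions overlap.

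SREBF2, the transcription factor, had log2 fold changes close to 0 in RTN under both treatments. Its log2 fold changes against room air ran from -0.15 in NTS under moderate hypercapnia to 0.010 in RTN under moderate hypercapnia. The lowest, median and highest NTS libraries had 115, 144 and 168 CPM under moderate hypercapnia and 131, 155 and 191 CPM in room air. The RTN libraries had 89.2, 105 and 123 CPM under moderate hypercapnia and 83.5, 104 and 121 CPM in room air. All 8 of its intervals lay between -0.40 and 0.23 on the log2 scale.

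HMGCS1, at the head of the pathway, differed in sign among regions, and no comparison of it with room air reached an unadjusted p under 0.05. It was at -0.26 ± 0.14 on the log2 scale in mPFC under moderate hypercapnia, where its libraries had 218, 294 and 333 CPM (lowest, median and highest) and those in room air 259.5, 338 and 401 CPM. All 6 moderate libraries were below the room air median there. In RTN it was at -0.21 ± 0.10 under mild hypercapnia (unadjusted p = 0.0527), with 220.3, 234 and 273 CPM in mild hypercapnia and 220.5, 282 and 334 CPM in room air, and again all 6 mild libraries were below the room air median. Moderate against mild hypercapnia in RTN gave 0.24 ± 0.10 (unadjusted p = 0.0275, adjusted p = 0.403, edgeR), 1 of 7 genes where 4.46% of all genes were higher at that level. In 4 of the 18 fits without 1 library that unadjusted p was above 0.05.

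In NTS, HMGCS1 was at 0.19 ± 0.18 under moderate and 0.21 ± 0.18 under mild hypercapnia. Room air replicate 1 had 163 CPM, where the other 5 room air libraries had 327 to 424 CPM. Without it the log2 fold changes were 0.057 for moderate and 0.070 for mild hypercapnia. With the mean level of the myelin list as a covariate the moderate value was -0.17, the other direction. Within NTS, HMGCS1 ran against the myelin list across the 18 libraries after the mean of each group was taken out (Pearson r = -0.806, Spearman rho = -0.750, permutation p = 0.000390 and 0.000770, adjusted over 140 relations 0.0182 and 0.0359). Without the 2 libraries farthest from the median myelin level r was -0.688.

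IDI1 and FDFT1 had the lowest median coefficients of variation over the 12 groups, though not the lowest in every group. In NTS IDI1 had 160.4, 170.3 and 210.3 CPM under moderate hypercapnia and 143, 177 and 199 CPM in room air (-0.18 to 0.17 on the log2 scale, 95% interval). In VRC it was at -0.26 ± 0.14 under moderate hypercapnia (unadjusted p = 0.0809), with all 6 libraries below the room air median. FDFT1 had 385, 425 and 461 CPM in RTN under moderate hypercapnia and 385, 436 and 455 CPM in room air, with an interval of -0.16 to 0.11. It was at 0.15 ± 0.086 in NTS under moderate hypercapnia and at -0.15 ± 0.094 in VRC under mild hypercapnia, where all 6 mild libraries were below the room air median.

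SQLE, a rate-limiting oxygenase of the sterol branch, had the smallest adjusted p of the 56, in NTS under moderate hypercapnia. Its lowest, median and highest libraries had 272, 299 and 317 CPM under moderate hypercapnia and 208, 261 and 276 CPM in room air. All 6 moderate libraries were above the room air median, but 2 of the room air libraries were above the lowest moderate one. The log2 fold change was 0.25 ± 0.088, with an unadjusted p of 0.0113 and an adjusted p of 0.330 in edgeR, and 5.53% of all genes were higher at an unadjusted p under 0.05. Over the alternatives the adjusted p of SQLE went down to 0.138 with limma and up to 0.999 with the myelin covariate, where the log2 fold change was 0.15.

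The myelin list had lower values in the same NTS libraries. Of its 11 measured genes, 10 had a log2 fold change below 0 under moderate hypercapnia, where 50.8% of all genes did. All 10 had an unadjusted p under 0.05 and 0 an adjusted p under 0.05 in edgeR. Of all genes, 7.92% were lower at that unadjusted level. The median of the myelin list was -0.89. Its summed level was 8717 to 38989 CPM in room air, 7072 to 24159 CPM in mild and 4393 to 16726 CPM in moderate hypercapnia. The neuron list had higher values, with 8 of its 9 measured genes above 0 and a median of 0.33, where 49.2% of all genes were above 0. Apart from the covariate fit, the part of these markers in the NTS values of the 7 genes was not tested.

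**Figure D3:**
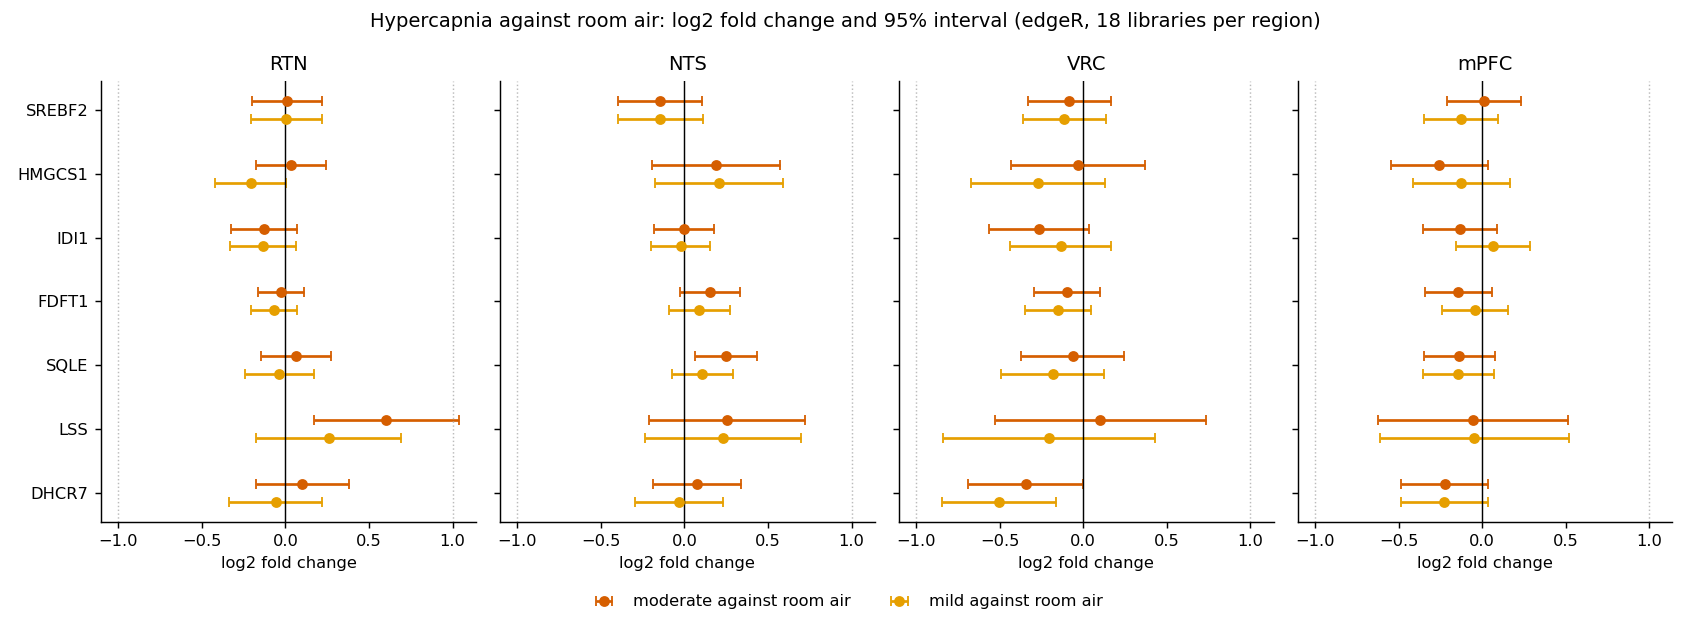
Log2 fold change of each gene under moderate and mild hypercapnia against room air (x axis), with its 95% interval, in RTN, NTS, VRC and mPFC. Dotted lines mark a 2-fold change, and only the interval of LSS in RTN under moderate hypercapnia crosses 1 of them, at 1.04.

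LSS, the cyclase that makes lanosterol, had the largest fold change, in RTN under moderate hypercapnia. Its lowest, median and highest RTN libraries had 14.6, 16.3 and 20.7 CPM in room air, 9.57, 20.9 and 25.1 CPM under mild and 16.9, 28.7 and 33.8 CPM under moderate hypercapnia. All 6 moderate libraries were above the room air median, and 2 of them lay within the room air range. The log2 fold change was 0.60 ± 0.21 under moderate hypercapnia (unadjusted p = 0.00872, adjusted p = 0.583, edgeR), where 3.77% of all genes were higher at an unadjusted p under 0.05. It was 0.26 ± 0.21 under mild hypercapnia. The unadjusted p for moderate hypercapnia was at most 0.0253 in the 18 fits without 1 library. LSS also had the fewest counts of the 7 genes, 225 to 752 in the moderate and 217 to 460 in the room air RTN libraries.

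DHCR7, the enzyme of the last step, had the smallest unadjusted p of the 56, in VRC under mild hypercapnia. Its lowest, median and highest VRC libraries had 78.5, 112 and 156 CPM in room air, 60.3, 82.7 and 97.2 CPM under mild and 60.4, 93.7 and 109 CPM under moderate hypercapnia. All 6 mild and all 6 moderate libraries were below the room air median, and both ranges overlapped that of room air. Under mild hypercapnia the log2 fold change was -0.50 ± 0.16 (unadjusted p = 0.00606, adjusted p = 0.715, edgeR), where 2.61% of all genes were lower at an unadjusted p under 0.05. Under moderate hypercapnia it was -0.34 ± 0.16 (unadjusted p = 0.0483, adjusted p = 0.864, edgeR), where 2.85% of all genes were. Both comparisons use the same 6 room air libraries. The moderate value had an unadjusted p above 0.05 in 7 of the 18 fits without 1 library, up to 0.136 without room air replicate 5, the highest library, and was -0.20 with the myelin covariate. The mild value stayed under an unadjusted p of 0.05 in all 18 such fits and was -0.53 with the covariate. The summed myelin level in VRC was 45012 to 59667 CPM in room air, 40865 to 62166 CPM under mild and 28589.6 to 62879.7 CPM under moderate hypercapnia, and its part in the DHCR7 values was not tested beyond the covariate fit.

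By sign, most of the 7 genes were below 0 in VRC and mPFC and above 0 in NTS, and no test of this balance was made. In VRC under mild hypercapnia all 7 had a log2 fold change below 0 (median -0.18), as did all 13 other measured synthesis genes (median -0.16), where 48.8% of all genes were below 0. The same was true of 6 of the 7 in mPFC under mild and in VRC under moderate hypercapnia, where 52% and 48.6% of all genes were below 0. In mPFC under moderate hypercapnia 6 of the 7 (median -0.14) and all 13 others (median -0.17) were below 0, where 47.9% of all genes were. In NTS the balance was the other way: 5 of the 7 (median 0.15) and 9 of the 13 (median 0.17) were above 0 under moderate hypercapnia, and 4 of the 7 and 12 of the 13 under mild, where 49.2% and 48% of all genes were. In RTN 5 of the 7 were below 0 under mild (median -0.057) and 5 above 0 under moderate hypercapnia (median 0.032), where 50.1% and 49.9% of all genes were. These are counts of signs, and some of the 7 genes varied together between libraries, so the signs are not independent. Whether the 13 others varied together was not tested. In each of the 8 comparisons 0 of the 20 genes passed the test.

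**Figure D4:**
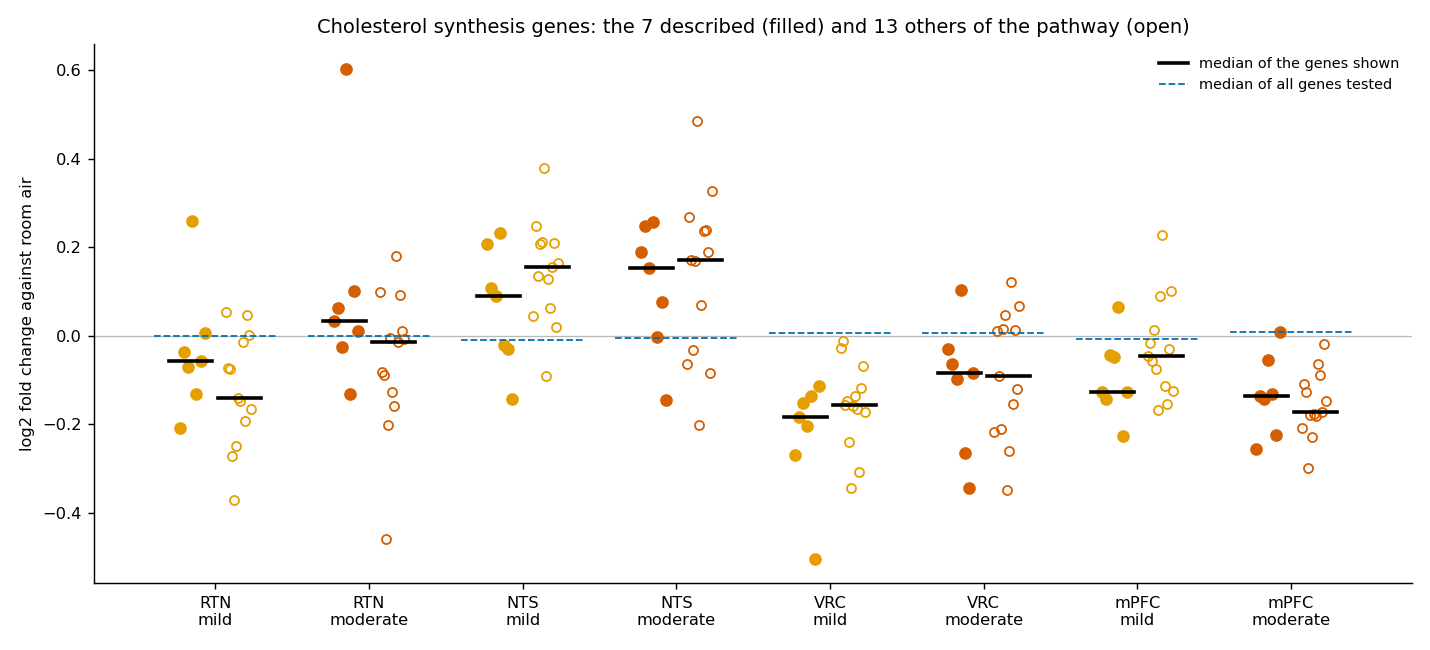
Log2 fold change against room air of the 7 genes (filled) and of 13 further cholesterol synthesis genes (open) in each region under mild and moderate hypercapnia. Black lines mark the median of each set and dashed lines that of all genes tested; the medians of both sets lie below 0 in VRC and mPFC and above 0 in NTS.

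Whether the response of a gene differed among the 4 regions was tested with a region by condition term over all 72 libraries, which again holds the regions of a goat as separate libraries. edgeR called 0 of the 7 genes, and 0% of 16372 genes, for either treatment. FDFT1 alone of the 7 had an unadjusted p under 0.05 for moderate hypercapnia, as did 3.83% of all genes. Its p was 0.0440 in edgeR's quasi-likelihood test, and 1 after Benjamini-Hochberg adjustment. Under mild hypercapnia there was 0 of the 7, where 2.4% were, and the smallest p was 0.0740, for DHCR7. The term covers all 4 regions at once. A difference between the NTS and VRC responses alone was not tested, and none is shown here for any of the 7 genes.

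The other sterol lists gave 0 calls at an adjusted p under 0.05 in edgeR as well, and genes of smallest unadjusted p of each are given. Among the 13 other synthesis genes these were PMVK, a mevalonate pathway kinase, in RTN under moderate hypercapnia (log2 -0.46 ± 0.15, unadjusted p = 0.00652), MVD, which makes isopentenyl diphosphate, in VRC under mild hypercapnia (log2 -0.31 ± 0.11, unadjusted p = 0.00959), SC5D in VRC under moderate hypercapnia (log2 -0.35 ± 0.14, unadjusted p = 0.0210) and NSDHL, a sterol dehydrogenase, in NTS under moderate hypercapnia (log2 0.33 ± 0.13, unadjusted p = 0.0219). Of 10 measured regulators of SREBP cleavage, SCAP, which escorts the factor to the Golgi, and INSIG1, which holds it back, were both lower in value in VRC under mild hypercapnia. SCAP had 94.0, 107 and 114 CPM under mild hypercapnia (lowest, median and highest) and 112, 136 and 143 CPM in room air (log2 -0.28 ± 0.080, unadjusted p = 0.00230). INSIG1 had 75.1, 88.8 and 102 CPM under mild hypercapnia and 100.03, 109.9 and 144 CPM in room air (log2 -0.35 ± 0.12, unadjusted p = 0.00618). ERLIN2 in NTS under mild hypercapnia (log2 0.29 ± 0.12) and the protease gene MBTPS1 in RTN under mild hypercapnia (log2 -0.19 ± 0.086) followed.

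Of 10 measured genes of uptake and transfer, LIPA, the lysosomal lipase that frees cholesterol from its esters, was at log2 0.62 ± 0.18 in NTS under mild hypercapnia (unadjusted p = 0.00238). MYLIP, a ubiquitin ligase, was at -0.18 ± 0.078 in the same comparison. Of 11 measured genes of efflux and turnover, the 4 were LPL, lipoprotein lipase, in RTN under moderate hypercapnia (log2 0.76 ± 0.29), the sterol exporter ABCG4 in NTS under mild hypercapnia (0.38 ± 0.16), the sterol sensor NR1H2 in RTN under moderate hypercapnia (0.18 ± 0.078) and CYP46A1, which hydroxylates cholesterol in neurons, in VRC under mild hypercapnia (-0.29 ± 0.14). Of 11 measured genes of fatty acid synthesis, SCD, a desaturase, had 55.4, 71.6 and 102 CPM in RTN under mild hypercapnia and 85.4, 109 and 114 CPM in room air (log2 -0.49 ± 0.14, unadjusted p = 0.00236). The elongase ELOVL5 in mPFC under mild hypercapnia (log2 0.70 ± 0.22), and ACSL3 (0.22 ± 0.084) and ACLY (0.66 ± 0.28) in NTS under moderate hypercapnia, were the others.

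Within groups, some of the 7 genes varied together between libraries, with the largest correlation for HMGCS1 and SQLE in VRC. For each region the log2 CPM of the 18 libraries, less the mean of each group, was compared for all 21 pairs of genes, 84 relations in all, by permutation within conditions (100000 resamples, two-sided) with Benjamini-Hochberg adjustment over the 84. Of these, 70 had a positive Pearson r, and 11 passed by both Pearson and Spearman, all positive. No share for pairs of other genes is given here, so these counts cannot be set against genes at large. In VRC, HMGCS1 and SQLE had r = 0.926 and rho = 0.940 (permutation p = 1e-05 for both, the smallest these resamples can give, adjusted p = 0.000840), and r = 0.874 without the 2 libraries farthest from the median of HMGCS1. In mPFC they had r = 0.826 and rho = 0.829 (permutation p = 7.00e-05 and 0.000140, adjusted 0.00196 and 0.00392), and r = 0.770 without 2 libraries. In NTS r was 0.581 (permutation p = 0.00924, adjusted 0.0598) and rho 0.612 (permutation p = 0.00590, adjusted 0.0413), so that only the rank measure passed. In RTN r was 0.354 and rho 0.317 (permutation p = 0.228 and 0.257), and r was 0.00128 without 2 libraries, so no relation was detected there. Whether r differs between regions was not tested.

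**Figure D5:**
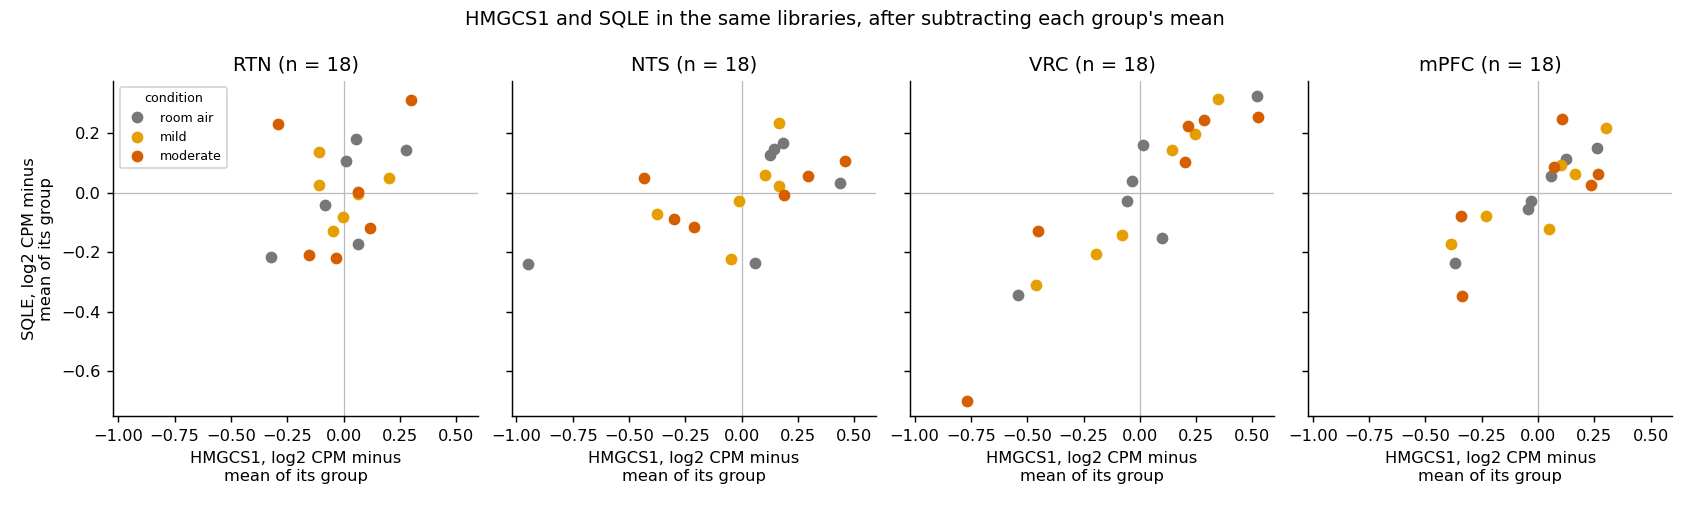
SQLE (y axis) against HMGCS1 (x axis) in the 18 libraries of each region, as log2 CPM minus the mean of the library's group, coloured by condition. The points follow a line in VRC (r = 0.926) and mPFC (r = 0.826), less so in NTS (r = 0.581), and scatter in RTN (r = 0.354).

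DHCR7 joined them in VRC, with r = 0.848 to SQLE and 0.793 to HMGCS1 (rho = 0.851 and 0.810, adjusted permutation p = 0.00168 and 0.00806 for r). In RTN, DHCR7 followed SQLE (r = 0.729, rho = 0.678, adjusted permutation p = 0.0357), and in NTS, FDFT1 followed SQLE (r = 0.718, rho = 0.709, adjusted permutation p = 0.0357). No pair with SREBF2 passed in any region. In VRC, replicate 1 had the lowest HMGCS1 of its group in all 3 conditions, at 214 CPM in room air, 184 CPM under mild and 175 CPM under moderate hypercapnia. With the mean of each replicate number taken out as well, r of HMGCS1 and SQLE was 0.892 in VRC, 0.850 in mPFC, 0.390 in RTN and 0.150 in NTS. For the pairs with DHCR7, r of SQLE and DHCR7 was then 0.542 in VRC and 0.899 in RTN, and r of HMGCS1 and DHCR7 was 0.665 in VRC, so both VRC values with DHCR7 were lower than before.

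Genes outside the 7 that were most like them are named by their correlation with the mean of the 7 scaled genes, among 10113 genes with a symbol and a mean of at least 5 CPM. This is a description, with no test. Over the 72 libraries, after the mean of each group was taken out, the closest were NLGN3 (r = 0.644), ABI1 (0.642), ZFR (0.641), SYMPK (0.640) and NCAPD3 (0.632), none of them a sterol gene. Of the sterol and fatty acid lists SCD came closest, at rank 22 (r = 0.606), with INSIG1 at rank 56 (0.574). Over the 12 group means the closest were NUFIP2 (r = 0.945), MEGF9 (0.940), ZFYVE26 (0.912), NUMA1 (0.910) and CLCN3 (0.905), and SCD was at rank 24 (0.847). Groups of 1 region share their tissue, so the group means rest mostly on differences between the 4 regions.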

How the data were processed

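RNA sequencing counts from 72 goat brain libraries, 6 for each of 4 regions and 3 conditions, were analysed. The authors deposited raw counts per gene, RPKM values (counts scaled by library total and gene length) and a gene length for each of 21343 genes, per the file headers. Gene length, in bases, was deposited with the gene models and used only to describe the genes. FastQC, Trimmomatic, STAR, featureCounts and edgeR are named in the submitters' processing notes, with no version, and the genome build is not given in the sources used here. Libraries held 12838991 to 31884742 counts in all (median 19259629), and whether a fold change is detected depends on this depth and on the spread of 6 libraries.

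Counts were tested in R 4.3.3 with edgeR 4.0.16. Genes were kept with filterByExpr at a minimum count of 10, scaled with TMM factors, and tested by edgeR's quasi-likelihood test with Benjamini-Hochberg adjustment over all genes tested at 0.05. Each region was fitted over its 18 libraries, regions over the 24 room air libraries of 6 goats with no term for the goat, and the region by condition term over all 72. All 7 genes passed the filter in every fit. Standard errors were taken from the fold change and its F value, and intervals are 95%. The fit was tested on simulated counts with 200 changed genes. Alternatives were RLE size factors, no filter, DESeq2 1.42.0, limma 3.58.1 with voom and quality weights, the replicate number as a block, the 2 groups alone, the mean log level of the myelin list as a covariate, and each library left out.

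The 7 genes and all gene lists were chosen with earlier results of these data known. All 7 were described whatever their values. From each other sterol list the text names, among the 4 genes of smallest unadjusted p over the 8 comparisons with room air, those reported here, between regions the 4 other synthesis genes of largest fold change, and for likeness the 5 genes of largest correlation. Ranks of further sterol genes in the likeness are given because those lists hold them. Genes of the lists with no row in the table were not analysed here. Start and end positions were not used, because the spans in the table were shorter than the gene lengths for most genes. Results for some genes of the lists are not reported here.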

Additional observations from a re-analysis of the deposited data

Results flagged for a closer look

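In each of the 84 groups of 6 libraries formed by the 7 genes, 4 regions and 3 conditions, the highest and the lowest library were compared with the rest by Dixon's criterion. It singled out 5 libraries, where chance alone gives about 4.2 of 84 (1 in 20). HMGCS1 had 163 CPM in NTS room air replicate 1, where the other 5 libraries had 327 to 424 CPM. Without that library the NTS fold changes of HMGCS1 were close to 0. LSS had 9.57 CPM in RTN mild hypercapnia replicate 4, below the 20.1 to 25.1 CPM of the others. IDI1 had 210.3 CPM in NTS moderate hypercapnia replicate 5, above 160.4 to 178 CPM in the others. DHCR7 had 95.7 CPM in NTS mild hypercapnia replicate 2, above 69.2 to 75.8 CPM. SREBF2 had 163 CPM in VRC mild hypercapnia replicate 2, above 121 to 133 CPM.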

How the results depend on the processing

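All 21 counts of the 7 genes called were recomputed under the alternatives that apply to each. Of these, 3 moved, all between regions in room air. In RTN against NTS limma with quality weights called 2 of the 7 genes in place of 1. In RTN against mPFC RLE size factors, DESeq2, limma and the replicate block called 3 in place of 2, and in VRC against mPFC the replicate block called 6 in place of 5. In all comparisons with hypercapnia and both interaction tests 0 of the 7 were called under RLE size factors, no filter, limma with quality weights, the replicate block and the myelin score, and in the comparisons also with DESeq2, the 2 groups alone and each of the 18 libraries of a region left out. The smallest adjusted p was 0.138 (SQLE in NTS under moderate hypercapnia, limma) and 0.148 without 1 library (SQLE, without room air replicate 5, edgeR).

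Same-numbered libraries of different conditions deviated together in 25 of 72 pairs within a region (r over 0.1, median 0.013), so the replicate number was not taken to pair conditions. Between regions of 1 condition 94 of 108 pairs did, 34 of 36 in room air (median r 0.274), and not every pair, so no block was used there. With the replicate number as a block LSS in VRC against mPFC passed (adjusted p = 0.0281, edgeR), as did SREBF2 in RTN against mPFC (0.0367). Over all genes the block called 0 in place of 1 in NTS under moderate hypercapnia.

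DESeq2 called 280 of all genes in VRC and 126 in RTN for moderate against mild hypercapnia, and limma 35 in VRC, where edgeR called 0. In the 8 comparisons with room air DESeq2 called 0 to 27 genes.

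Under alternatives that keep all libraries, 23 log2 fold changes of single genes turned sign in at least 1 alternative, which gave 42 turned values. None of the 42 was called (smallest adjusted p 0.751), and the cause was not tested. With DESeq2, the values were -0.0041 for SQLE mPFC moderate against mild, -0.0059 for DHCR7 mPFC moderate against mild, 0.0017 for IDI1 NTS moderate against room air, 0.0026 for SREBF2 NTS moderate against mild, 0.0082 for DHCR7 NTS against mPFC. With RLE size factors, the values were -0.0039 for SQLE mPFC moderate against mild, -0.0060 for DHCR7 mPFC moderate against mild, 0.00084 for IDI1 NTS moderate against room air, 0.0018 for SREBF2 NTS moderate against mild, 0.0080 for DHCR7 NTS against mPFC. With limma and quality weights, the values were -0.011 for IDI1 mPFC mild against room air, 0.072 for LSS mPFC moderate against room air, 0.28 for LSS mPFC moderate against mild, 0.0053 for HMGCS1 NTS moderate against mild, 0.030 for SREBF2 NTS moderate against mild, 0.016 for HMGCS1 VRC moderate against room air, 0.012 for SQLE VRC moderate against room air, -0.0098 for SREBF2 RTN mild against room air, -0.029 for SQLE RTN moderate against room air, -0.0093 for DHCR7 RTN moderate against room air, -0.038 for SREBF2 RTN moderate against room air, -0.044 for IDI1 RTN moderate against mild, -0.028 for SREBF2 RTN moderate against mild, 0.053 for HMGCS1 NTS against mPFC, 0.049 for DHCR7 NTS against mPFC, 0.061 for LSS RTN against mPFC. With the myelin score as a covariate, the values were 0.030 for LSS mPFC moderate against mild, -0.17 for HMGCS1 NTS moderate against room air, -0.048 for LSS NTS moderate against mild, 0.020 for SREBF2 NTS moderate against mild, 0.093 for HMGCS1 VRC moderate against room air, 0.027 for SQLE VRC moderate against room air, 0.085 for IDI1 VRC moderate against mild, -0.025 for SREBF2 RTN mild against room air, -0.0044 for SREBF2 RTN moderate against room air. With no filter on low counts, the values were -0.0057 for SREBF2 mPFC moderate against room air, -0.016 for SQLE mPFC moderate against mild, -0.017 for DHCR7 mPFC moderate against mild, 0.015 for DHCR7 NTS against mPFC. With the replicate block, the values were -0.0048 for SQLE mPFC moderate against mild, 0.0067 for SREBF2 NTS moderate against mild, 0.013 for LSS RTN against mPFC.

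Leaving out 1 library turned the sign of 28 log2 fold changes in at least 1 of 18 fits, again none of them called. For DHCR7 the ranges were -0.13 to 0.015 in NTS mild against room air, -0.017 to 0.12 in NTS moderate against room air, -0.072 to 0.073 in mPFC moderate against mild. For FDFT1 the ranges were -0.097 to 0.031 in mPFC mild against room air. For HMGCS1 the ranges were -0.11 to 0.066 in NTS moderate against mild, -0.036 to 0.087 in RTN moderate against room air, -0.15 to 0.098 in VRC moderate against room air. For IDI1 the ranges were -0.080 to 0.0086 in NTS mild against room air, -0.032 to 0.049 in NTS moderate against mild, -0.057 to 0.027 in NTS moderate against room air, -0.042 to 0.066 in RTN moderate against mild, -0.21 to 0.019 in VRC moderate against mild. For LSS the ranges were -0.066 to 0.14 in NTS moderate against mild, -0.32 to 0.064 in VRC mild against room air, -0.086 to 0.36 in VRC moderate against room air, -0.21 to 0.12 in mPFC mild against room air, -0.14 to 0.16 in mPFC moderate against mild, -0.17 to 0.11 in mPFC moderate against room air. For SQLE the ranges were -0.0069 to 0.11 in RTN moderate against room air, -0.12 to 0.054 in VRC moderate against room air, -0.065 to 0.071 in mPFC moderate against mild. For SREBF2 the ranges were -0.054 to 0.089 in NTS moderate against mild, -0.049 to 0.058 in RTN mild against room air, -0.042 to 0.055 in RTN moderate against mild, -0.045 to 0.062 in RTN moderate against room air, -0.040 to 0.12 in VRC moderate against mild, -0.15 to 0.0063 in VRC moderate against room air, -0.030 to 0.067 in mPFC moderate against room air.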

Other observations

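Besides HMGCS1 and the myelin list in NTS, 4 of the 140 relations between a gene and a library measure passed by both Pearson and Spearman, over the 18 libraries of a region with group means taken out. FDFT1 followed the neuron list in NTS (r = 0.839 and rho = 0.845, permutation p = 9.00e-05 and 9.00e-05, adjusted 0.0126 and 0.0126, and r = 0.794 without the 2 farthest libraries). It ran against the TMM factor of the library in NTS as well (r = -0.760 and rho = -0.754, permutation p = 0.000390 and 0.000500, adjusted 0.0182 and 0.0350, and r = -0.656 without the 2 farthest libraries). In mPFC FDFT1 followed the myelin list (r = 0.647 and rho = 0.734, permutation p = 0.00214 and 0.00173, adjusted 0.0428 and 0.0484, and r = 0.580 without the 2 farthest libraries). LSS ran against the neuron list in VRC (r = -0.697 and rho = -0.763, permutation p = 0.00104 and 0.00104, adjusted 0.0243 and 0.0364, and r = -0.732 without the 2 farthest libraries). The list levels and the TMM factor come from the same libraries as the genes, and their part in these relations was not tested.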
